A study of Mus musculus with 78 samples.

Results

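The genes described here are the serotonin receptors Htr1a, Htr1b, Htr2a, Htr2c, Htr3a, Htr4, Htr5a, Htr6 and Htr7. They are 9 of the 55367 gene symbols counted in the deposited tables, were chosen by name, and all have a row in both tables. Poly(A) RNA was sequenced in 78 libraries from 7 brain regions of 12 adult C57BL/6J mice. KO mice carried a constitutive deletion of Acss2 from exon 3 to exon 7, present in every cell, which was made with CRISPR guides and backcrossed for 3 generations, and WT mice did not carry it. Acss2 encodes an acetyl-CoA synthetase that uses acetate, which the body forms from ethanol. All mice of both genotypes were single-housed and had drunk 15% ethanol in the drinking-in-the-dark procedure, which gives limited access to ethanol at night and yields binge-like intake. After 1 week of habituation the sessions lasted 2 h on days 1 to 3 and 4 h on day 4, and in the next week the sessions held ethanol and no water. Each combination of sex and genotype had 3 mice, numbered 1, 2 and 10 (male KO), 3, 12 and 13 (male WT), 4, 5 and 6 (female KO) and 11, 23 and 24 (female WT). Of the 28 groups of region, sex and genotype, 23 held 3 libraries, 4 held 2 and 1 held 1. No mouse without ethanol is in the series, so the values describe receptors in drinking mice.

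Serotonin reaches the forebrain from neurons of the raphe nuclei, and its effect on a target cell depends on the receptor there. The receptors encoded by Htr1a, Htr1b and Htr5a couple to inhibitory Gi proteins, those of Htr2a and Htr2c to Gq proteins that activate phospholipase C, and those of Htr4, Htr6 and Htr7 to Gs proteins that raise cyclic AMP. Htr3a encodes the subunit that every serotonin-gated ion channel needs. Htr1b protein sits largely on axon terminals of striatal projection neurons and other cells, where it limits transmitter release, so its mRNA marks the cell of origin and not the site of the protein. The Htr2c message is known to be abundant in the epithelium of the choroid plexus, the tissue that makes cerebrospinal fluid.

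Levels are CPM, that is counts scaled to the library total. The amygdala, the dorsal hippocampus and both striatal regions were sequenced deeply, with total counts from 4454420 to 14487778 in 47 libraries, and ventral hippocampus, cortex and prefrontal cortex lightly, with 629635 to 1228828 in 31 libraries. A count of 3, taken as the floor of detection, was worth 0.207 to 0.673 CPM in the deep libraries and 2.44 to 4.76 CPM in the shallow ones. Acss2 lay between 0.971 and 13.96 CPM in the 40 KO libraries and between 35.9 and 73.8 CPM in the 38 WT libraries. The library labelled female WT prefrontal cortex of mouse 23 had 0 counts of Xist and 73.4 CPM of the Y-linked Ddx3y, which goes against its label. In 6 further libraries the marker genes went against the labelled region. These were dorsal striatum of male KO mouse 10 and female WT mouse 23 and ventral striatum of male KO mouse 10 and male WT mouse 13, which were low in markers of striatal projection neurons, ventral hippocampus of female KO mouse 6, which was high in them, and ventral hippocampus of male KO mouse 10, which was low in hippocampal markers. Some of the values that rest on these libraries are given with and without them. Others are given as a range over alternative fits, or only with them.

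The 250 bases before the RefSeq start sites of Htr1b and Htr2c are shown because these members reached the highest CPM of the 9 in any library. Both are written on the gene's strand in GRCm38.p6, Htr1b from chr9:81633833-81634082 (minus strand) and Htr2c from chrX:146962263-146962512 (plus strand). Capitals mark matches to the CCAAT box, which read ATTGG where the match lies on the other strand.
Htr1b: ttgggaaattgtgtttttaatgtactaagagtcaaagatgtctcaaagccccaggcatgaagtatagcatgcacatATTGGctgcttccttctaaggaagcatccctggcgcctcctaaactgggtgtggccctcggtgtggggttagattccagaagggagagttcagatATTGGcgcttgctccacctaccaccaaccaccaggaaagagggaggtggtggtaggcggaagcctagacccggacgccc
Htr2c: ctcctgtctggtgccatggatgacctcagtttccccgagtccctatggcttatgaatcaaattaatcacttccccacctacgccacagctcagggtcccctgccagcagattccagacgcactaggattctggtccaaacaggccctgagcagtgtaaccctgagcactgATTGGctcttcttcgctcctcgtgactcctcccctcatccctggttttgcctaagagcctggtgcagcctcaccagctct
The Htr1b stretch held 2 matches to CCAAT and the Htr2c stretch 1, and 33.9% of 32851 promoter stretches of the same length held at least 1 on either strand. The cyclic AMP response element TGACGTCA was found in 1.55% of all stretches, its core TGACG in 17.8%, the GC box GGGCGG in 32.7% and the TATA box TATAAA in 12.4%. None of these other letters was found on either strand of the Htr1b and Htr2c stretches. The full element holds the core, so those searches overlap. RefSeq promoter sequences were matched for 7 of the 9 members.

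Between regions, 8 of the 9 receptors differed in at least 6 of 21 region pairs, and Htr6 differed in none. In edgeR's quasi-likelihood test on all 78 libraries, 90 of the 189 tests of a member in a region pair passed an adjusted p of 0.05 (Benjamini-Hochberg over all genes), that is 47.6% beside 37% of tests over all genes. Of the 21 pairs, 9 joined regions of like depth, and 42 of their 81 member tests passed, 51.9% beside 35.8% over all genes. The other 12 pairs set a deep against a shallow region, where 48 of 108 passed, 44.4% beside 38% over all genes. In those 12 pairs depth and region cannot be told apart. In bulk tissue a lower level can be fewer cells that express a gene or less RNA per cell, which cannot be told apart either.

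**Figure D1:**
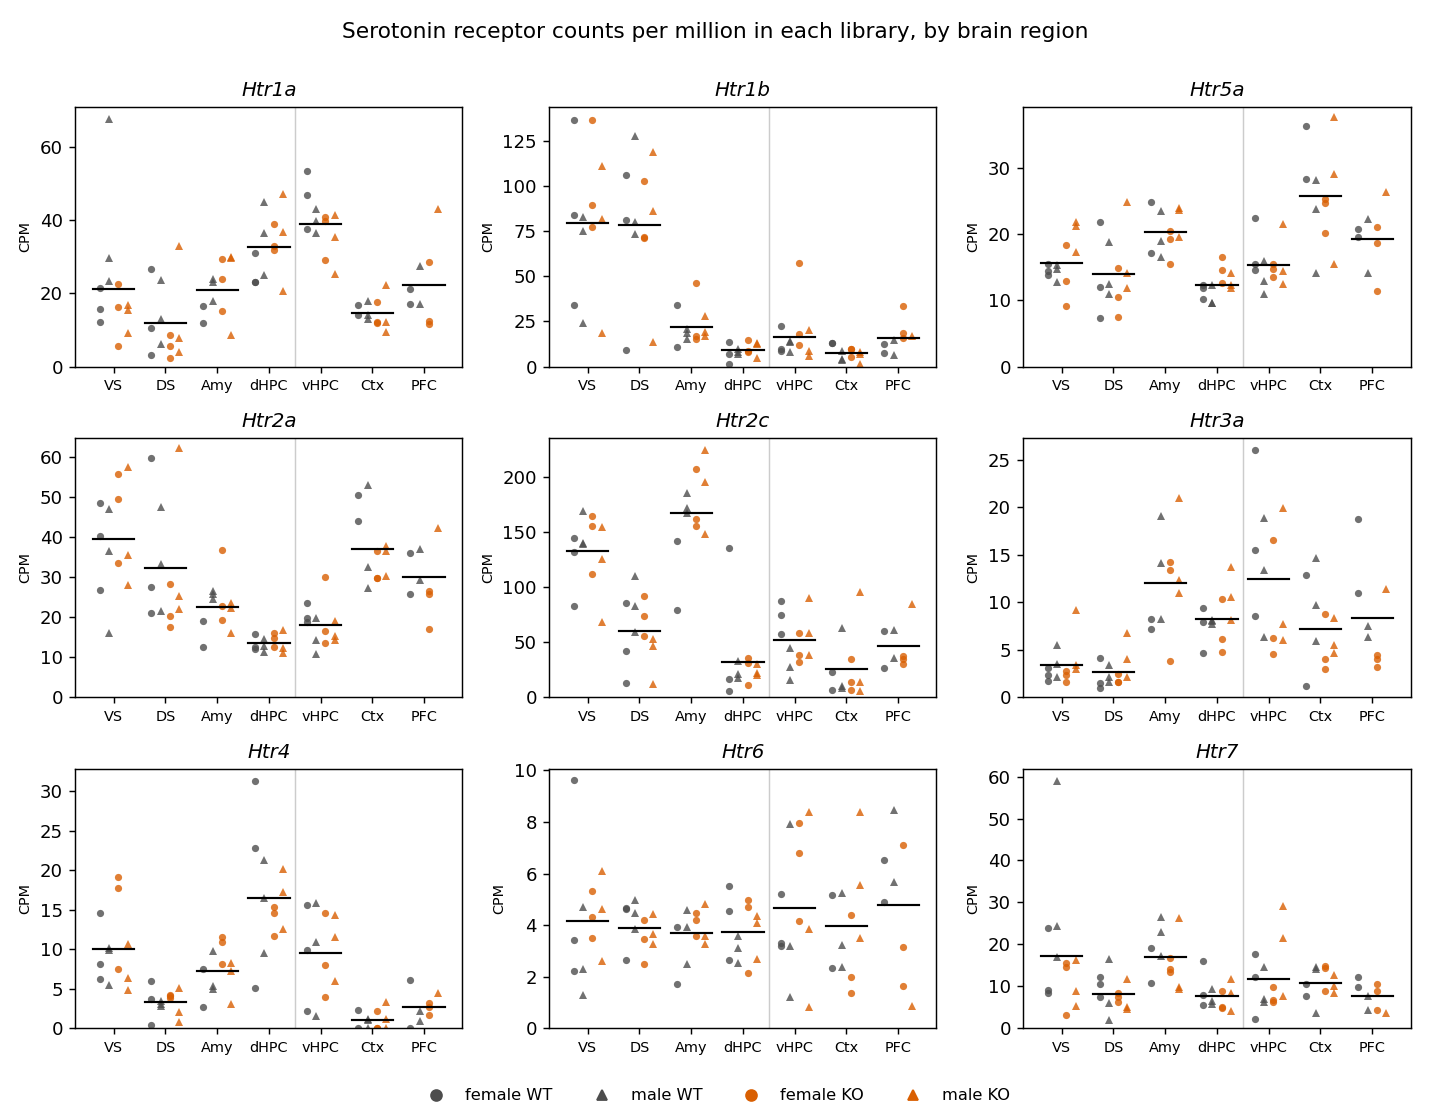
CPM (y axis) of each of the 9 receptors in every library, by region (x axis: VS ventral striatum, DS dorsal striatum, Amy amygdala, dHPC dorsal hippocampus, vHPC ventral hippocampus, Ctx cortex, PFC prefrontal cortex). Points are libraries (grey WT, orange KO, circles female, triangles male), black lines are region means, and the vertical line parts deep from shallow regions. Htr1b stands high in both striatal regions, Htr2c in amygdala and ventral striatum, and Htr6 is level at means from 3.68 to 4.79 CPM.

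Among the Gi-coupled receptors, Htr1a was highest in the hippocampus. The gene (chr13:105443639-105448122, plus strand, 1 exon) had a lowest, median and highest level of 25.2, 39.7 and 53.4 CPM in the 12 ventral hippocampus libraries. In dorsal hippocampus these were 20.7, 32.4 and 47.1 CPM. In dorsal striatum, where it was lowest, they were 2.37, 8.22 and 32.8 CPM. Every ventral hippocampus library was above 10 of the 12 dorsal striatum libraries, and the exceptions, male KO mouse 10 at 32.8 and female WT mouse 23 at 26.5 CPM, are those whose markers go against the region. Htr1a was lower in dorsal striatum than in ventral hippocampus by a log2 fold change of -1.69 ± 0.29 (SE, adjusted p = 9.19e-07). Without the 6 libraries this was -2.29 ± 0.28. That pair is of unlike depth, and at like depth Htr1a was also called lower in dorsal striatum than in dorsal hippocampus. The order of region means was ventral hippocampus (39.04 CPM), dorsal hippocampus (32.6), prefrontal cortex (22.3), ventral striatum (21.3), amygdala (20.9), cortex (14.6) and dorsal striatum (12.01). No neighbours in that order differed by the test, and neither hippocampal region differed from prefrontal cortex.

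Htr1b was highest in both striatal regions. In the 12 ventral striatum libraries it had a lowest, median and highest level of 18.7, 82.4 and 137 CPM, and in the 12 dorsal striatum libraries 9.07, 80.5 and 128 CPM. In the 11 cortex libraries it lay at 1.40, 7.77 and 12.9 CPM, with 2 libraries at or under the floor. The gene (chr9:81628291-81633828, minus strand) was 3.41 ± 0.42 log2 units higher in dorsal striatum than in cortex (SE, adjusted p = 1.47e-10) and 1.91 ± 0.29 higher than in amygdala (adjusted p = 4.60e-08). Ventral and dorsal striatum did not differ by the test (-0.05 ± 0.27, adjusted p = 0.945). The next level, 22.03 CPM in amygdala, was followed by ventral hippocampus (16.5), prefrontal cortex (15.7), dorsal hippocampus (8.99) and cortex (7.55), and neighbours among these 5 did not differ by the test. Exons of Htr1b overlap those of D430036J16Rik on the other strand, and the kit does not mark strand, so reads of the pair cannot be told apart.

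The low Htr1b values in striatum were those of libraries with low striatal markers. Across the 24 striatal libraries Htr1b went with the mean log2(CPM + 1) of 7 markers of striatal projection neurons (among them Drd1, Drd2, Adora2a and Ppp1r1b) at r = 0.97, a description over libraries that share mice and depth. Dorsal striatum of male KO mouse 10 had 13.6 CPM and a marker score of 4.88, and that of female WT mouse 23 had 9.07 CPM and a score of 3.75. In ventral striatum, male KO mouse 10 had 18.7 CPM at a score of 6.15 and male WT mouse 13 had 23.9 CPM at 4.97. The opposite case was ventral hippocampus of female KO mouse 6, with 57.1 CPM at a score of 8.33. Without the 6 libraries the region means were 91.8 ± 20.6 CPM in dorsal striatum (SD, n = 10), 90.9 ± 30.6 in ventral striatum (n = 10) and 12.1 ± 5.14 in ventral hippocampus (n = 10). Over all 12 libraries the SD in dorsal striatum was 36.5 CPM.

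**Figure D2:**
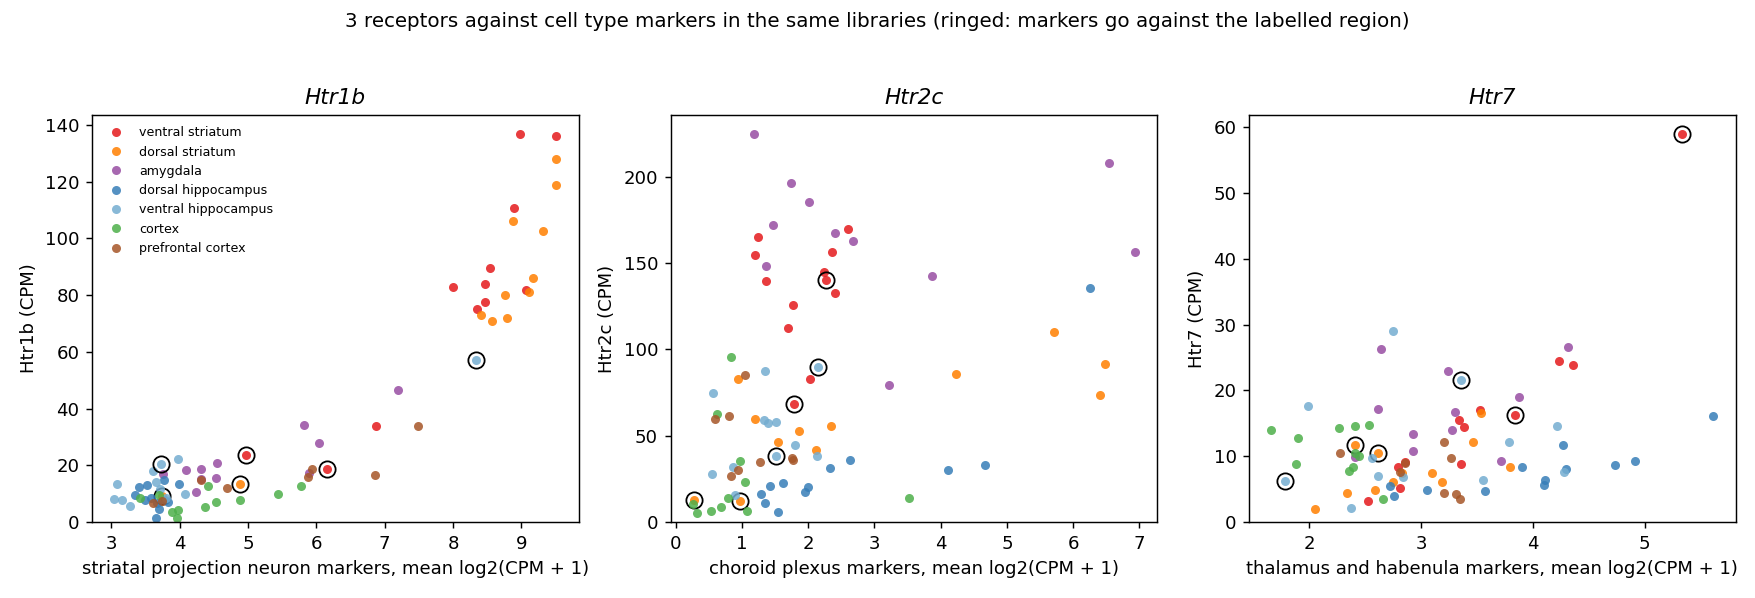
Htr1b, Htr2c and Htr7 in CPM (y axes) against the mean log2(CPM + 1) of a marker list in the same library (x axes: striatal projection neurons, choroid plexus, thalamus and habenula). Each point is 1 of 78 libraries coloured by region, and rings mark the 6 libraries whose markers go against their region. The dorsal striatum libraries with the lowest striatal scores, 3.75 and 4.88, have the lowest Htr1b of that region, and the highest Htr7 point, 59.0 CPM, has the highest thalamic score of ventral striatum.

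Htr5a was the most even of the Gi-coupled members and the one highest in cortex. It lay at a lowest, median and highest level of 14.2, 25.3 and 37.7 CPM in cortex, and at 9.54, 12.3 and 16.6 CPM in dorsal hippocampus, where it was lowest. The gene (chr5:27842149-27855088, plus strand) was lower in dorsal hippocampus than in cortex by -1.04 ± 0.15 log2 units (adjusted p = 5.01e-08), a pair of unlike depth. At like depth it was 0.67 ± 0.13 higher in amygdala than in dorsal hippocampus (adjusted p = 2.31e-05). Cortex exceeded the next region, amygdala at 20.3 CPM, by 0.37 ± 0.15 (adjusted p = 0.0474), a call that was lost when any of 7 single mice was left out. No other neighbours in the order of means differed by the test. In dorsal striatum the highest Htr5a values, 24.9 CPM in male KO mouse 10 and 21.9 CPM in female WT mouse 23, were again those of the libraries low in striatal markers.

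Of the Gq-coupled receptors, Htr2c had the widest span of region means in CPM of all 9. In the 11 amygdala libraries its lowest, median and highest levels were 79.3, 167 and 225 CPM, and in ventral striatum 68.1, 140 and 170 CPM. In cortex they were 5.58, 13.8 and 95.4 CPM. The cortex libraries of male KO mouse 1 (95.4 CPM) and male WT mouse 12 (62.7 CPM) stood above the other 9, which reached at most 35.2 CPM. The gene (chrX:146962513-147197277, plus strand) was 2.66 ± 0.38 log2 units higher in amygdala than in cortex (adjusted p = 2.46e-08). Amygdala and ventral striatum did not differ by the test (0.34 ± 0.29, adjusted p = 0.364), and ventral striatum was higher than the next region, dorsal striatum at 60.5 CPM, by 1.09 ± 0.29 (adjusted p = 0.00720). Below it, ventral hippocampus (52.0), prefrontal cortex (46.5), dorsal hippocampus (31.8) and cortex (25.7) followed without a called step between neighbours.

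Choroid plexus markers moved with Htr2c in some regions. In dorsal hippocampus, Htr2c was 136 CPM in female WT mouse 23 and 5.64 to 35.8 CPM in the other 11 libraries. That library held 4518 CPM of Ttr, the transthyretin message that choroid plexus makes in bulk. Over the 12 dorsal hippocampus libraries r was 0.82 between Htr2c and the score of 8 choroid plexus markers. In dorsal striatum r was 0.66, and in amygdala, where Htr2c was highest, it was -0.08. The male KO amygdala libraries had 148 to 225 CPM of Htr2c beside 5.56 to 12.9 CPM of Ttr, and the female KO libraries 156 to 208 CPM beside 90.7 to 8637 CPM of Ttr. The WT amygdala libraries had 79.3 to 185 CPM of Htr2c beside 6.01 to 452 CPM of Ttr. The female ones among them had 79.3 to 143 CPM of Htr2c beside 412 to 452 CPM of Ttr. With the choroid plexus score as a covariate, an alternative chosen after seeing the data, Htr2c was 1.43 ± 0.27 higher in ventral than in dorsal striatum (adjusted p = 0.000117) and 2.49 ± 0.28 higher in amygdala than in dorsal hippocampus (adjusted p = 2.19e-11). The difference between dorsal striatum and cortex, 1.23 ± 0.38 (adjusted p = 0.00482), was 0.69 ± 0.36 (adjusted p = 0.105) with the covariate.

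Htr2a, the receptor through which classical hallucinogens act, was highest in ventral striatum and cortex. In ventral striatum its lowest, median and highest levels were 15.96, 38.3 and 57.4 CPM, and in cortex 27.2, 36.5 and 52.9 CPM. In dorsal hippocampus it lay between 11.1 and 16.8 CPM, below every cortex library. The gene (chr14:74640840-74709494, plus strand) was 1.50 ± 0.18 log2 units higher in ventral striatum than in dorsal hippocampus (adjusted p = 2.53e-11). The order went from ventral striatum (39.5 CPM) through cortex (37.03), dorsal striatum (32.2), prefrontal cortex (29.9), amygdala (22.6) and ventral hippocampus (18.01) to dorsal hippocampus (13.6), and no neighbours differed by the test. The libraries of dorsal striatum that were low in striatal markers held 62.1 and 59.7 CPM. Without the 6 libraries the dorsal striatal mean was 26.4 ± 8.76 CPM (SD, n = 10) and the difference from amygdala was no longer called.

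Htr3a, the channel subunit, was lowest in both striatal regions, where Htr1b was highest. It lay at a lowest, median and highest level of 4.54, 10.95 and 26.01 CPM in ventral hippocampus and 3.83, 12.3 and 20.98 CPM in amygdala. In dorsal striatum it lay at 0.967, 2.18 and 6.73 CPM. The gene (chr9:48899213-48911099, minus strand) was lower in dorsal striatum than in amygdala, a pair of like depth, by -2.15 ± 0.25 log2 units (adjusted p = 3.30e-11). It was lower in ventral striatum than in amygdala by -1.86 ± 0.25 (adjusted p = 3.71e-09). The means fell from ventral hippocampus (12.5 CPM) and amygdala (12.1) through prefrontal cortex (8.35), dorsal hippocampus (8.29) and cortex (7.16) to ventral striatum (3.38) and dorsal striatum (2.69), and the 1 called step between neighbours was from cortex to ventral striatum (1.14 ± 0.33, adjusted p = 0.00268). Across the 78 libraries Htr3a and Htr1b had r = -0.65 on log2 CPM, a description. In cortex 3 of 11 libraries were at or under the floor, and in prefrontal cortex 1 of 8. Htr3b, which encodes the partner subunit, had 12 counts in all 78 libraries together and was at 0 in 70.

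Of the Gs-coupled receptors, Htr4 was called in the most pairs, 16 of 21. It was highest in dorsal hippocampus, with a lowest, median and highest level of 5.12, 15.9 and 31.3 CPM, and lay at 4.84, 9.01 and 19.1 CPM in ventral striatum. In dorsal striatum it lay at 0.342, 3.52 and 5.96 CPM. Htr4 lies at chr18:62324204-62496577 (plus strand). The 11 cortex libraries held 0 to 3 counts each, 10 in all, so every cortex library was at or under the floor and 5 were at 0. Fitted differences from cortex are therefore not given as folds. The 16 called pairs include those of cortex with every region but prefrontal cortex. They also include those of prefrontal cortex with ventral striatum, amygdala and both hippocampal regions. The means ran from dorsal hippocampus (16.5 CPM) through ventral striatum (10.1), ventral hippocampus (9.53), amygdala (7.22) and dorsal striatum (3.29) to prefrontal cortex (2.63, with 6 of 8 libraries at or under the floor) and cortex (1.03). Of these steps, those from dorsal hippocampus to ventral striatum and from amygdala to dorsal striatum were called. Dorsal hippocampus was higher than ventral striatum by 0.82 ± 0.25 log2 units (adjusted p = 0.00402). Ventral striatum exceeded dorsal striatum by 1.54 ± 0.27 (adjusted p = 3.25e-05). Dorsal exceeded ventral hippocampus by 0.84 ± 0.30 (adjusted p = 0.0442), which was 0.82 ± 0.30 (adjusted p = 0.0511) with the mouse as a replicate block.

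Htr7 was highest in ventral striatum and amygdala. In amygdala its lowest, median and highest levels were 9.22, 16.8 and 26.6 CPM. In ventral striatum they were 3.18, 15.0 and 59.0 CPM, the widest spread of any region for this gene. The means ran from ventral striatum (17.1 CPM) and amygdala (16.9) through ventral hippocampus (11.7), cortex (10.9), dorsal striatum (8.14) and dorsal hippocampus (7.79) to prefrontal cortex (7.66), with no called step between neighbours. The gene (chr19:35958734-36057507, minus strand) was 1.05 ± 0.26 log2 units higher in amygdala than in dorsal hippocampus (adjusted p = 0.000908) and 0.95 ± 0.26 higher in ventral than in dorsal striatum (adjusted p = 0.00884). Htr7 went with 4 markers of thalamus and habenula (Tcf7l2, Prkcd, Tac2 and Lef1) in ventral striatum, at r = 0.95 over 12 libraries, and in dorsal hippocampus at r = 0.86. Elsewhere r was 0.62 in dorsal striatum, 0.29 in amygdala, 0.18 in ventral hippocampus, -0.40 in cortex and -0.51 in prefrontal cortex. Over all 78 libraries it was 0.31. The part of these markers in the Htr7 levels was not tested. Without the 6 libraries the ventral striatal mean was 13.03 ± 7.35 CPM (SD, n = 10) and its difference from dorsal striatum 0.71 ± 0.26 (adjusted p = 0.0411).

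Htr6, known for high levels in striatum, was even and low at the depth of these libraries. Its lowest, median and highest levels were 1.29, 3.90 and 9.62 CPM in ventral striatum, 2.49, 4.03 and 4.98 CPM in dorsal striatum and 1.70, 3.91 and 4.82 CPM in amygdala. The values in the shallow regions came from 1 to 8 counts a library, with 6 of 11 cortex, 5 of 12 ventral hippocampus and 3 of 8 prefrontal cortex libraries at or under the floor. The gene (chr4:139061108-139075570, minus strand) had 0 of 21 pairs called by edgeR's quasi-likelihood test and 0 at an unadjusted p under 0.05. The region means ran from 3.68 CPM in amygdala to 4.79 CPM in prefrontal cortex, no neighbours in their order differed by the test, and its largest difference, amygdala below ventral hippocampus, was -0.32 ± 0.29 log2 units (adjusted p = 0.458).

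Levels of different receptors were compared per kilobase of annotated exon. On the scale of mean CPM per kb, Htr1b led in ventral striatum (16.8) and dorsal striatum (16.6), Htr2c in amygdala (17.95), Htr1a in dorsal hippocampus (7.27) and ventral hippocampus (8.71), and Htr2a in cortex (6.61) and prefrontal cortex (5.34). Htr1b made up 41.4% of the members' summed CPM per kb in dorsal striatum, and Htr2c 36.7% in amygdala. In prefrontal cortex the leading share was 17.2%.

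In the 4 pairs of neighbouring or linked regions the members differed as follows. Ventral striatum exceeded dorsal striatum in Htr4, Htr2c, Htr7 and Htr1a, 4 of 9 members beside 12.8% of genes, with Htr1a at 0.74 ± 0.26 log2 units (adjusted p = 0.0472) and not called when any of 8 single mice was left out. Without the 6 libraries that Htr1a difference was 1.27 ± 0.25. Ventral striatum against amygdala had 4 of 9 called beside 42.9% of genes, with Htr1b and Htr2a higher and Htr3a and Htr5a lower. Dorsal against ventral hippocampus had 1 of 9, Htr4, beside 17.1% of genes, although these regions differ in depth. Cortex against prefrontal cortex had 0 of 9 beside 30.2% of genes, in libraries where a member had at most 97 counts. There Htr5a was the 1 member with an unadjusted p under 0.05, 0.45 ± 0.19 higher in cortex (adjusted p = 0.0584), and it passed without the 6 libraries (0.46 ± 0.18, adjusted p = 0.0369).

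No receptor passed the test between KO and WT in any region. With both sexes in the fit, 0 of 56 member tests passed edgeR's quasi-likelihood test at an adjusted p of 0.05 beside 0.0191% over all genes, and the DESeq2 Wald test also called 0. At an unadjusted p under 0.05 there were 5 of 56, 8.93% beside 4.84% over all genes, and 34 of the 56 fold changes were above 0. Of the 63 combinations of a member and a region, 7 were left out by the filter on low counts, which were Htr1b, Htr3a, Htr4 and Htr6 in cortex, Htr4 and Htr6 in prefrontal cortex and Htr6 in ventral hippocampus. Acss2 itself fell by 2.69 to 3.27 log2 units over the 7 regions and passed the adjusted test in each.

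**Figure D3:**
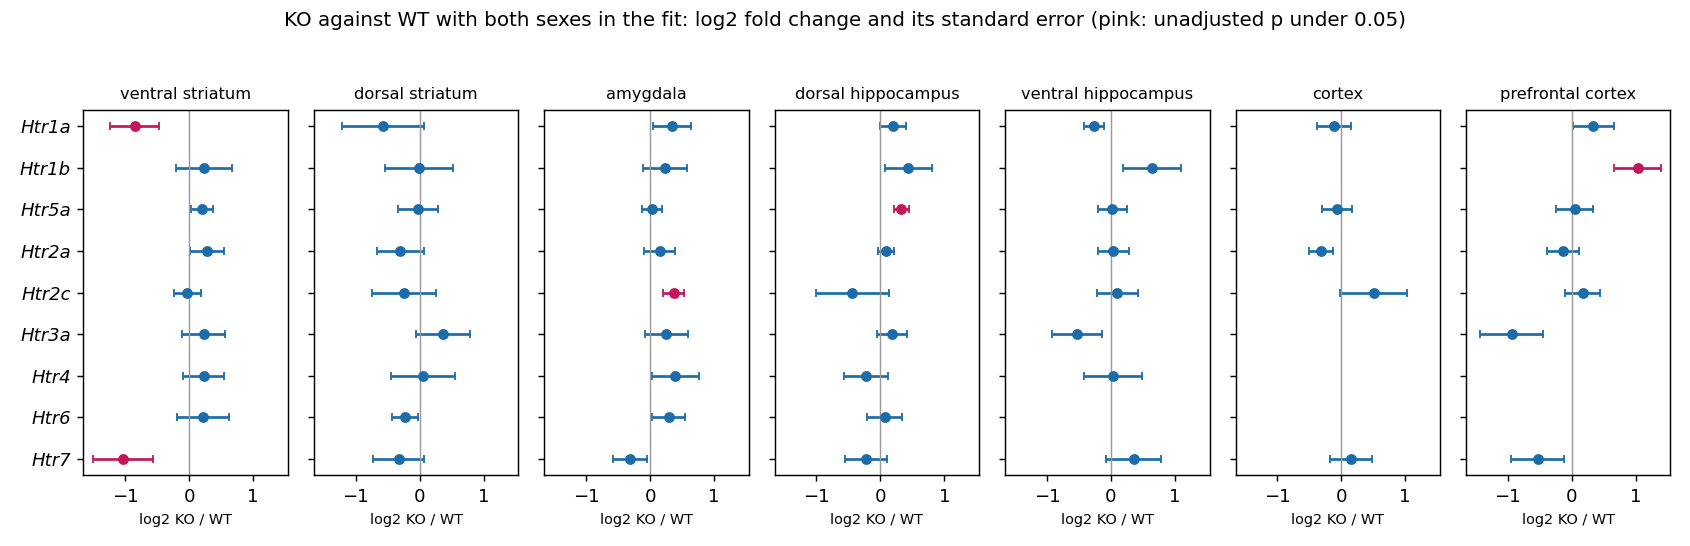
Log2 fold change of KO over WT (x axes) with its standard error for the 9 receptors (rows) in 7 regions (panels), both sexes in each fit. Pink points have an unadjusted p under 0.05. They are Htr1a and Htr7 in ventral striatum, Htr2c in amygdala, Htr5a in dorsal hippocampus and Htr1b in prefrontal cortex, and none passes after adjustment. Members without a point were filtered out.

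Within each sex, 0 of 104 member tests passed edgeR's quasi-likelihood test beside 0.0368% over all genes, and the DESeq2 Wald test called 0. The fit without the low-count filter did call Htr1a and Htr7 in male ventral striatum, Htr2c in male ventral hippocampus and Htr3a in female prefrontal cortex. With the filter, 9 of 104 had an unadjusted p under 0.05, 8.65% beside 4.53% over all genes. In male ventral striatum, the region the series title names, 3 of 9 members had one, beside 9.84% of genes, and with both sexes 2 of 9 did beside 7.28%. Htr1a was 9.25, 15.4 and 16.8 CPM in the KO males and 23.3, 67.5 and 29.7 CPM in the WT males. Every KO male was below every WT male, and mouse 12 stood far above the others. With both sexes the log2 fold change was -0.85 ± 0.38 (unadjusted p = 0.0427, adjusted p = 0.648), and -0.51 without mouse 12. In males it was -1.50 ± 0.42 (unadjusted p = 0.00799, adjusted p = 0.493), and -0.91 without mouse 12. In females, Htr1a was 22.6, 16.2 and 5.48 CPM in KO and 21.3, 15.8 and 12.2 CPM in WT, so the groups overlapped.

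Htr7 in male ventral striatum was 8.89, 5.18 and 16.3 CPM in KO and 17.03, 24.5 and 59.0 CPM in WT. These groups did not overlap, and mouse 13 was the highest. In females it was 15.6, 14.5 and 3.18 CPM in KO and 23.9, 9.08 and 8.42 CPM in WT, which overlapped. With both sexes the log2 fold change was -1.04 ± 0.47 (unadjusted p = 0.0478, adjusted p = 0.648), and -0.64 without mouse 13. In males it was -1.70 ± 0.53 (unadjusted p = 0.0133, adjusted p = 0.493), and -1.01 without mouse 13. The 4 thalamus and habenula markers were all lower on average in these KO males, and summed to 25.7 to 67.3 CPM in KO and 50.7 to 242 CPM in WT. None of the 4 was at 0 in these libraries, and their part in the Htr7 difference was not tested. Htr5a in the same libraries was 17.3, 21.3 and 21.8 CPM in KO and 12.8, 14.7 and 15.3 CPM in WT, 0.53 ± 0.17 log2 units higher (unadjusted p = 0.0171, adjusted p = 0.493). The 7 cortical markers were all higher on average in the KO males, at sums of 215 to 538 CPM against 131 to 191 CPM, and their part was not tested. Without the 2 male ventral striatum libraries whose markers go against the region, the male differences were -1.82 for Htr1a (adjusted p = 0.237), -1.50 for Htr7 (adjusted p = 0.192) and 0.54 for Htr5a (adjusted p = 0.407). Without the same libraries and with both sexes the differences were -0.85 for Htr1a and -0.79 for Htr7 (adjusted p = 0.740 for both).

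In ventral hippocampus Htr2c went opposite ways in the sexes. In males it was 38.4, 58.9 and 90.0 CPM in KO and 44.5, 27.9 and 15.9 CPM in WT, groups that overlapped by 1 library on each side. In females it was 31.8, 58.3 and 38.4 CPM in KO and 74.8, 57.4 and 87.4 CPM in WT, also with a small overlap. The male difference was 1.096 ± 0.349 log2 units (unadjusted p = 0.00733, adjusted p = 0.502), in a comparison where 1 of 8 members and 8.08% of genes had an unadjusted p under 0.05. The female difference was -0.73 ± 0.25 (unadjusted p = 0.0136, adjusted p = 0.996), with 1 of 6 members beside 3.93% of genes. These values rest on 16 to 84 counts a library. The highest male KO value came from mouse 10, whose library was low in hippocampal markers, and without it the male difference was 0.77 (adjusted p = 0.851). Of the 8 choroid plexus markers 5 were higher on average in the KO males, at sums of 29.02 to 99.8 CPM against 20.6 to 44.5 CPM, Tmem72 was at 0 in all of them, and their part was not tested. In females 6 of the 8 were lower on average in KO, at sums of 20.4 to 34.96 CPM against 10.7 to 37.5 CPM, and their part was not tested either. Without KO mouse 6, whose library was high in striatal markers, the female difference was -0.69 (adjusted p = 0.912).

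**Figure D4:**
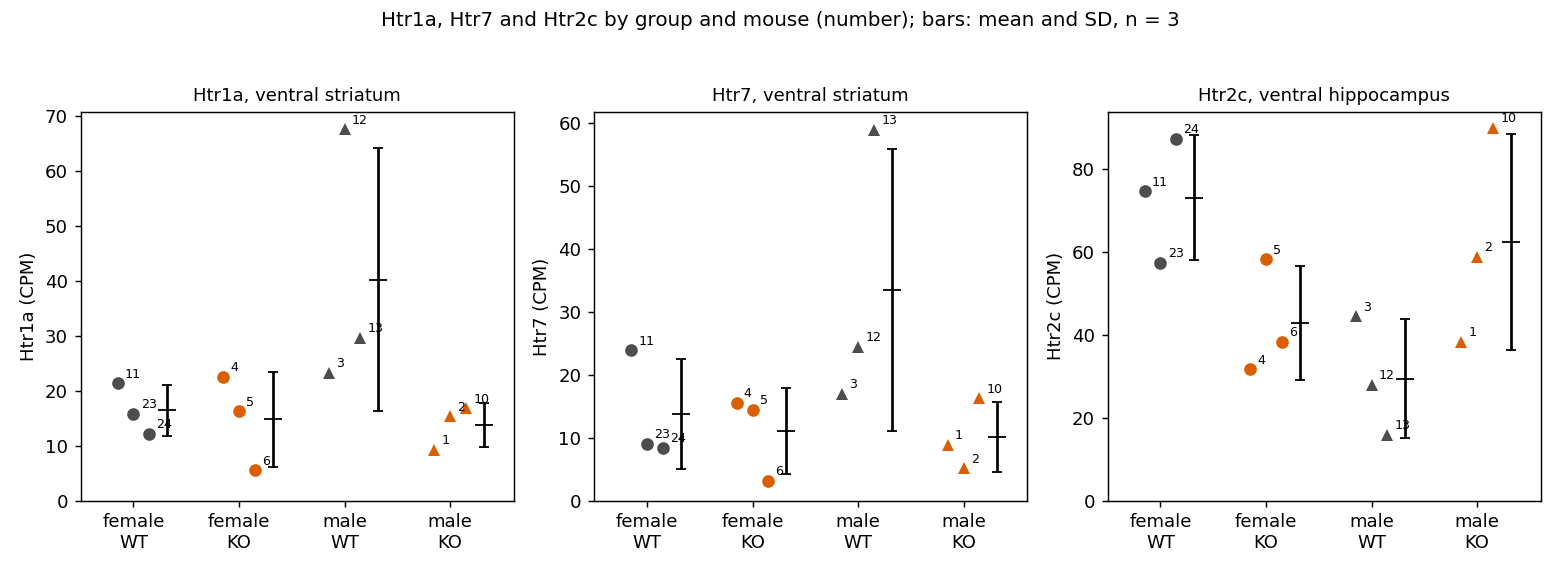
CPM (y axes) of Htr1a and Htr7 in ventral striatum and of Htr2c in ventral hippocampus, by sex and genotype (x axes). Points are mice with their numbers, and bars give the mean and SD of 3 mice. In ventral striatum the male WT mice 12 (67.5 CPM of Htr1a) and 13 (59.0 CPM of Htr7) stand apart, and in ventral hippocampus the Htr2c means are 62.4 in KO and 29.4 in WT males but 42.8 in KO and 73.2 in WT females.

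In prefrontal cortex Htr1b was higher in KO libraries and Htr3a lower in female KO libraries, without passing the adjusted test. Htr1b was 15.8, 33.7 and 18.7 CPM in the female KO libraries, 16.7 CPM in the male KO library, 7.35 and 12.2 CPM in those labelled female WT and 6.61 and 14.8 CPM in the male WT libraries. No KO library was below a WT one. The log2 fold change with both sexes was 1.03 ± 0.37 (unadjusted p = 0.0133, adjusted p = 0.381), with 1 of 7 members beside 8.58% of genes under an unadjusted p of 0.05. In females alone it was 1.25 ± 0.44 (unadjusted p = 0.0126, adjusted p = 0.335). Over the alternatives, which include leaving out the library of mouse 23, the difference with both sexes ran from 0.77 to 1.28. The female difference ran from 0.86 to 1.59. The same KO libraries held more striatal message: all 7 striatal markers were higher on average, and their sums were 584 to 1733 CPM in KO and 155 to 295 CPM in WT. None of the 7 was at 0 in these libraries, and their part in the Htr1b difference was not tested.

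Htr3a in female prefrontal cortex was 3.17, 4.44 and 4.07 CPM in KO, from 3 to 5 counts a library, and 18.8 and 11.01 CPM in the libraries labelled WT. The groups did not overlap. The log2 fold change was -1.962 ± 0.484 (unadjusted p = 0.00119, adjusted p = 0.113), and 2 of 7 members had an unadjusted p under 0.05 beside 9.08% of genes. Without the library labelled female WT of mouse 23 it was -2.26 (adjusted p = 0.0603), with 1 WT library left, which is assumed to vary like the KO ones. Of the 8 markers of Htr3a-type interneurons, 6 were lower on average in the female KO libraries, at sums of 326 to 440 CPM against 519 to 777 CPM, and their part was not tested. The single male KO library had 11.4 CPM and the male WT libraries 7.55 and 6.35 CPM, a comparison that was not tested.

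The other receptors with an unadjusted p under 0.05 changed by less. Htr2c in amygdala was 148 to 225 CPM in the 6 KO libraries (median 179) and 79.3 to 185 CPM in the 5 WT libraries, which overlapped, with a difference of 0.37 ± 0.17 (adjusted p = 0.994), 1 of 9 members beside 3.41% of genes. In females alone it was 208, 156 and 163 CPM in KO and 79.3 and 143 CPM in WT, 0.64 ± 0.26 (adjusted p = 0.982), 1 of 9 beside 2.97%. All 8 choroid plexus markers were higher on average in the KO females, at sums of 134 to 9192 CPM against 449 to 539 CPM, and their part was not tested. Htr5a in dorsal hippocampus was 11.8 to 16.6 CPM in KO and 9.54 to 12.3 CPM in WT, 0.32 ± 0.12 higher (adjusted p = 1.00), 1 of 9 members beside 2.83% of genes. Htr2a in female cortex was 36.5, 29.7 and 29.7 CPM in KO and 43.9 and 50.5 CPM in WT, a difference of -0.55 ± 0.25 (adjusted p = 0.451), 1 of 6 beside 10.6%. Of the 7 cortical markers 6 were lower on average in those KO females, at sums of 684 to 825 CPM against 724 to 1036 CPM, and their part was not tested. For Htr4 and Htr6 the smallest p was in amygdala, with differences of 0.39 ± 0.37 and 0.29 ± 0.26 (adjusted p = 0.994 for both).

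The KO effect did not differ between the sexes for any receptor by the adjusted test. In 6 regions 0 of 51 member interactions passed edgeR's quasi-likelihood test beside 0% over all genes, and the DESeq2 Wald test called 0. The fit without the low-count filter did call Htr2c in ventral hippocampus. With the filter, 3 of 51 had an unadjusted p under 0.05, 5.88% beside 4.25%. Htr2c in ventral hippocampus had the largest of these, with a male effect 1.83 ± 0.48 log2 units above the female one (unadjusted p = 0.00144, adjusted p = 0.720), 1 of 8 members beside 6.63% of genes, and 1.47 (adjusted p = 0.583) without the libraries whose markers go against the region. The others were Htr2a in amygdala, -0.97 ± 0.39 (adjusted p = 0.880), 1 of 9 beside 4.42%, and Htr5a in ventral striatum, 0.67 ± 0.30 (adjusted p = 0.943), 1 of 9 beside 3.84%, which was 0.66 (adjusted p = 0.998) without the libraries that go against the region.

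Males and females did not differ in any receptor by the adjusted test either. Over 7 regions 0 of 56 member tests passed edgeR's quasi-likelihood test beside 0.0493% over all genes, and the DESeq2 Wald test called 0. The fit without the low-count filter did call Htr2c in cortex and in prefrontal cortex. With the filter, 5 of 56 had an unadjusted p under 0.05, 8.93% beside 7.07%. Of these, 3 were in prefrontal cortex, 3 of 7 members beside 6.37% of genes. Htr2c there was 85.2, 61.3 and 35.99 CPM in males and 26.9 to 60.0 CPM in the 5 libraries labelled female, 0.75 ± 0.27 higher in males (adjusted p = 0.599). Htr1a differed by 0.72 ± 0.33 (adjusted p = 0.745) and Htr7 by -0.97 ± 0.45 (adjusted p = 0.777). The library of mouse 23 that goes against its sex label is counted as female here. Over the alternatives, which include leaving it out, the Htr2c difference ran from 0.21 to 1.12. That of Htr1a ran from 0.18 to 0.95 and that of Htr7 from -1.24 to -0.81. Htr3a in ventral striatum was higher in males by 0.90 ± 0.34 (adjusted p = 0.986), 1 of 9 beside 2.90% of genes, with its highest values, 9.17 and 5.48 CPM, in the 2 male libraries whose markers go against the region. Without those libraries the difference was 0.36 (adjusted p = 1.00), and without male KO mouse 10 alone it was 0.56. Htr2c in amygdala was 0.37 ± 0.17 higher in males (adjusted p = 0.273), 1 of 9 beside 17.8% of genes. All 8 choroid plexus markers were lower on average in these males, at sums of 20.6 to 117 CPM against 134 to 9192 CPM, and their part was not tested.

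The serotonin pathway around the receptors was followed with 43 genes in 3 lists: synthesis, transport and breakdown (12), G proteins and second messengers (22) and partners of the receptors (9). Between regions 373 of 840 of their tests were called, 44.4% beside the 37% over all genes. Of the 43 genes 40 entered these tests, with 9 of the 12 for synthesis, transport and breakdown. The lists differed. For G proteins and second messengers 224 of 462 tests were called, and for partners of the receptors 96 of 189, both larger shares than over all genes. For synthesis, transport and breakdown 53 of 189 were called, a smaller share than over all genes. In the striatum against the dorsal hippocampus, members of the lists differed in both directions. Ppp1r1b, which encodes the phosphatase inhibitor DARPP-32, was 4.61 ± 0.48 log2 units higher in dorsal striatum than in dorsal hippocampus (adjusted p = 3.69e-13). Adcy5, the main striatal adenylyl cyclase, was 3.13 ± 0.27 higher (adjusted p = 2.27e-16), and Gnal, the striatal stimulatory G protein subunit, 1.92 ± 0.22 higher (adjusted p = 8.33e-12). Adcy1 went the other way, -2.70 ± 0.25 in ventral striatum against dorsal hippocampus (adjusted p = 4.01e-15). Ppp1r1b is also on the list of striatal markers.

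Between KO and WT, 1 of 266 pathway tests passed with both sexes and 2 of 491 within a sex, all in prefrontal cortex, 0.376% and 0.407% beside the 0.0191% and 0.0368% over all genes. At an unadjusted p under 0.05 there were 23 and 28, 8.65% and 5.70% beside 4.84% and 4.53%. Ppp1r1b was 2.28 ± 0.34 log2 units higher in KO with both sexes (adjusted p = 0.0158) and 2.12 ± 0.42 in females (adjusted p = 0.0410). Qdpr, which recycles the tetrahydrobiopterin that serotonin synthesis needs, was 1.32 ± 0.19 higher in KO females (adjusted p = 0.00738). These are the prefrontal libraries in which all 7 striatal markers were higher in KO. In females they were 3 KO libraries and 2 labelled WT, and that of mouse 23 goes against its sex label. The pathway tests were not repeated without it. All 6 oligodendrocyte markers were also higher on average in the KO females, at sums of 6372 to 10514 CPM against 1582 to 3059 CPM, and the part of either list was not tested. For sex and for the interaction 0 of 266 and 0 of 229 pathway tests passed edgeR's quasi-likelihood test beside 0.0493% and 0% over all genes, with 20 and 10 at an unadjusted p under 0.05, 7.52% and 4.37% beside the 7.07% and 4.25% over all genes.

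Of the other 5 serotonin receptor genes of the tables, Htr1d had the highest level, in the striatum, with 11.9 ± 4.04 CPM in ventral striatum (SD, n = 12), 8.50 ± 3.74 in dorsal striatum and 3.35 ± 1.90 in amygdala (n = 11). In cortex all 11 libraries were at or under the floor for it. Htr5b had 4.32 ± 3.10 CPM in dorsal hippocampus and 4.17 ± 3.41 in ventral hippocampus (n = 12 each), and 0.465 ± 0.550 in ventral striatum. The ventral hippocampus value came from 0 to 11 counts a library, and Htr5b was at or under the floor in 46 of the 78 libraries. Htr1f lay between 1.77 and 3.79 CPM as region means. It was at or under the floor in 28 of the 78 libraries, among them all 11 of cortex. Htr2b had 16 counts in all 78 libraries together, and was at or under the floor in every library.

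The genes whose log2 CPM over the 78 libraries was most like that of a receptor were sought among 11758 genes, as a description of libraries that share region, mouse and depth. Htr1b was most like Tac1 (r = 0.92), which encodes the precursor of substance P, and Adcy5 (r = 0.92). Htr2c was most like Zcchc12 (r = 0.91), and Htr4 like Doc2b (r = 0.85), a calcium sensor of vesicle release. For Htr5a it was Prkar1b (r = 0.80), a regulatory subunit of protein kinase A, for Htr3a Septin9 (r = 0.79), for Htr1a Sphkap (r = 0.78), for Htr2a Arhgap32 (r = 0.78) and for Htr7 Resp18 (r = 0.72). Htr6 had no gene above r = 0.40, where the best was Ercc6.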

How the data were processed

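The authors deposited raw read counts per gene symbol in a table for each sex, with no normalization, and all 78 columns were used. Per the submitters' processing notes, the tools named are STAR 2.5.2a, SAMtools 1.1, HTSeq 0.6.1, DESeq2 and R 4.0.2 and the build is GRCm38 (mm10). The strand setting and annotation are not given in the sources used here. Samples were grouped by their titles, and the replicates are separate mice. The members, gene lists and tests were chosen with earlier results of these data known. CPM is the count over the column total, and floors of 3 counts cover counting error only, as there are no molecular identifiers.

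KO and WT were compared per region with sex in the model, and within each sex. The interaction, the sexes, and 21 region pairs in 1 fit were tested likewise with edgeR 4.0.16 (quasi-likelihood, TMM, filterByExpr with minimum count 10 and total 15, limma 3.58.1, R 4.3.3). Benjamini-Hochberg adjustment ran over all genes tested, with 0.05 as threshold. Males alone were not tested in prefrontal cortex, where they have 1 KO library. Marker scores are the mean log2(CPM + 1) of a list. A library went against its region with a striatal score under 6.5 in striatum or over 8 elsewhere, or a hippocampal score under 4 in hippocampus. Positions and exon lengths come from GENCODE M21 by symbol, and may differ from the authors' annotation. Fits were tested on simulated data.

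All members were named in every comparison. A KO fold change was given where the unadjusted p was under 0.05, or else in the region of smallest p with both sexes. The 3 genes most like a member had the highest Pearson r of log2 CPM (prior count 2) among genes of mean CPM of at least 5, of which the first or the first few are named. Alternatives were DESeq2 1.42.0 size factors, fits of all genes without the low-count filter, the Wald test of DESeq2, leaving out each mouse, leaving out the library labelled female WT prefrontal cortex of mouse 23, and the mouse as a replicate block. Leaving out the 6 libraries whose markers go against their region, and the choroid plexus score as covariate, were chosen after seeing the data. The same mouse number was taken as the same animal across regions. The sex genes of the prefrontal cortex library of mouse 23 go against this for that library. Libraries of 1 mouse deviated from their group means together only weakly (mean r = 0.0172 over 210 pairs). Libraries of mice that differed in sex or genotype gave a mean r of -6.83e-05 over 1898 pairs. These values do not settle which libraries share an animal.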

Additional observations from a re-analysis of the deposited data

Results flagged for a closer look

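The libraries below stand apart from the others of their region and genotype, with both sexes in a group: the gap to the nearest library, over the range of the group, was above the 95% critical value of Dixon's test. Of 126 groups of 4 to 6 libraries 16 had such a library. Chance gives about 1 in 20 groups, or 6.3, if the groups are independent and CPM is normally spread. The receptors share the same libraries, so their groups are not independent, and the spread was not tested. In dorsal striatum, male KO mouse 10 had 32.8 CPM of Htr1a (median of the others 5.68) and 62.1 CPM of Htr2a, in a library low in striatal markers. In ventral striatum, male WT mouse 12 had 67.5 CPM of Htr1a from 353 counts, male WT mouse 13 had 59.0 CPM of Htr7 from 366 counts, and male KO mouse 10 had 9.17 CPM of Htr3a from 53 counts. In ventral hippocampus, female KO mouse 6 had 57.1 CPM of Htr1b and 30.1 CPM of Htr2a, in the library high in striatal markers, and male KO mouse 2 had 21.6 CPM of Htr5a. In dorsal hippocampus, female WT mouse 23 had 136 CPM of Htr2c, 16.1 CPM of Htr7 and 4.65 CPM of Htr3a, the last below the other libraries. In amygdala, female KO mouse 6 had 36.9 CPM of Htr2a. In cortex, male KO mouse 1 had 95.4 CPM of Htr2c from 86 counts. In prefrontal cortex, the same mouse had 85.2 CPM of Htr2c and 11.4 CPM of Htr3a from 13 counts, as the only male of its 4 KO libraries, and female KO mouse 5 had 33.7 CPM of Htr1b.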

How the results depend on the processing

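Between regions the 90 calls were 83 to 93 when a mouse was left out, 88 with the mouse as a replicate block, and 98 without the 6 libraries whose markers go against their region, of which 87 were shared. None of the 90 changed sign under any of these, or under DESeq2 size factors, a fit without the low-count filter, the Wald test of DESeq2 or the choroid plexus covariate. The replicate block ended the calls of Htr5a between amygdala and ventral hippocampus and of Htr4 between dorsal and ventral hippocampus, and no other. Without a filter on low counts, the KO comparisons within a sex gave 4 calls where there had been 0: Htr1a (adjusted p = 0.0282) and Htr7 (0.0357) in male ventral striatum, Htr2c in male ventral hippocampus (0.00452) and Htr3a in female prefrontal cortex (0.0124). The interaction gave 1 (Htr2c in ventral hippocampus, adjusted p = 4.92e-05) and the sexes 2 (Htr2c in cortex, 0.0204, and prefrontal cortex, 0.0449). Over all genes, that setting called 77 of 25630 in male ventral striatum, 161 of 21446 in male ventral hippocampus and 373 of 21743 in female prefrontal cortex. For the interaction in ventral hippocampus it called 117 of 23674. For the sexes it called 16 of 22924 in cortex and 144 of 23179 in prefrontal cortex. The cause of these added calls was not tested. When a mouse was left out, calls within a sex were 0 to 1, the 1 being Htr4 in female dorsal hippocampus without WT mouse 23 (-0.998, adjusted p = 0.0473). That fit called 167 of 14327 genes. Region means were compared with their values under TMM sizes and without mitochondrial genes. In all 126 comparisons the mean moved by less than 1 SD. Depth limits Htr6 in the 3 shallow regions and Htr4 in cortex and prefrontal cortex, where their counts are near the floor. Some libraries were also at or under the floor for Htr3a in cortex and prefrontal cortex and for Htr1b in cortex. Both were filtered out of the cortex KO fit with both sexes.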
